A study of Mus musculus with 2 samples.

Results

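Messenger RNA levels of 10 mouse genes of transforming growth factor beta (TGF-beta) signalling were compared between 2 arrays, one for each of 2 cultures. The genes are 4 signal transducers (the SMAD proteins Smad2, Smad3 and Smad4 and the receptor Tgfbr1), 5 feedback inhibitors (Smad6, Smad7, Ski, Skil and Pmepa1) and Ltbp1, which stores the ligand outside the cell. They were taken by gene symbol and are 10 of 18194 genes with a probe set of their own, and all 24 probe sets that carry 1 of these symbols were used, out of 34958 probe sets with 1 symbol. The genes were picked with their values on these arrays already known, so what follows is a description and holds no test.

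One array carried RNA of mouse lymphoma cells kept in co-culture with endothelial cells, which form the lining of blood vessels. The other carried RNA of mouse lymphoma cells grown in a medium containing serum. The labels give no line, genotype, sex, age or time for either culture, no medium for the co-culture, no species or source for the endothelial cells, and no step that would part the cell types before RNA was taken. With 1 array for each culture there is no replicate error, no fold below can be set against the spread between cultures, and the number of arrays limits the precision.

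TGF-beta binds a type II receptor kinase, which activates the type I receptor Tgfbr1. Tgfbr1 phosphorylates Smad2 and Smad3, and these join Smad4 and enter the nucleus to bind DNA. In many cell types the same complex turns on its own inhibitors. In B cells and their lymphomas the pathway is known mainly as a brake on growth.

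The deposited values are linear intensities, 1 for each probe set, a group of short probes against 1 transcript region. Values under 44.3, the median of all values of both arrays, were set to that floor before log2 was taken, and a gene counts as measured where its brightest probe set exceeded the floor in 1 culture or both. All 10 genes were measured, as were 11560 genes in all. Differences are log2 of co-culture minus log2 of serum culture by the brightest probe set unless another is named. Between measured probe sets that share a gene they had a pooled SD of 0.60 (5480 genes), which holds no spread between cultures. Besides probe and hybridisation error it may hold differences between the transcript regions probed, and some of its values were set to the floor. The share of each was not tested. It is the SD for a single probe set. A gap between genes carries the error of each gene, so multiples of this SD overstate such gaps.

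Markers of the labelled cells were scarce on both arrays. Of 9 B-lineage genes with a probe set 7 were under the floor in both cultures, and the 2 others were Ebf1, with 85.3 in co-culture and 161 in serum culture, and Igll1, with 59.0 in co-culture and 18.1 in serum culture. Of 10 pan-leukocyte genes 8 were under the floor in both cultures, and the 2 others were Coro1a, with 125 in co-culture and 75.5 in serum culture, and Itgal, with 64.3 in co-culture and 53.9 in serum culture. Of 8 T-lineage genes 7 were under the floor in both, Cd8a among them, and Cd2 had 47.2 in co-culture and 38.6 in serum culture. Lymphocyte markers therefore do not bear out the label lymphoma in either culture. Of 12 endothelial genes 10 were under the floor in both cultures, Pecam1, Cdh5, Kdr and Tek among them, and the summed intensity of the 12 was 823 in co-culture and 742 in serum culture. Most of that sum was Egfl7, with 532 in co-culture and 473 in serum culture, and Flt1 had 26.4 in co-culture and 93.3 in serum culture. Of 9 mesenchymal genes 5 were under the floor in both, the sum was 382 in co-culture and 312 in serum culture, and the brightest were Pdgfra, with 57.4 in co-culture and 92.2 in serum culture, and Col1a2, with 64.8 in co-culture and 77.4 in serum culture, by mean over both arrays. The other 2 measured mesenchymal genes, named after their values were seen, were higher in co-culture: Pdgfrb had 76.7 in co-culture and 56.9 in serum culture, and Dcn had 64.3 in co-culture and 33.3, below the floor, in serum culture. In RNA of mixed cells a lower share of one cell type and less RNA in each of its cells cannot be told apart. The 3′ to 5′ intensity ratio of control transcripts, a sign of RNA length, also differed. For beta-actin it was 2.05 in co-culture and 3.56 in serum culture, for Gapdh 1.88 in co-culture and 2.54 in serum culture, and for Tfrc 5.03 in co-culture and 13.2 in serum culture. Its part in the differences below was not tested.

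All 5 feedback inhibitors had a higher value in co-culture, 3 of them at least 2-fold, while none of the 4 transducers was past 2-fold in either direction. By brightest probe set the 5 inhibitors had a median log2 difference of 1.83, with a range of 0.63 to 3.79, and the 4 transducers had a median of -0.04, with a range of -0.87 to 0.02. The lowest inhibitor thus lay above the highest transducer, and the gap between the medians was 1.87. Across all measured genes the median was -0.06. Of the 10 genes 4 were at least 2-fold higher (Pmepa1, Smad7, Skil and Ltbp1), 0 were at least 2-fold lower and 6 lay within 2-fold. The background is 523 measured genes past 2-fold on the higher side (4.52%) and 1152 on the lower side (9.97%). Since the genes were picked with these values in view, their count is not read against it. When the arrays were scaled to their hybridisation spikes in place of the values as deposited, the median of all genes moved to -0.26, and the share of higher genes among those past 2-fold was 17.2% against 31.2%. Under that scaling the inhibitors ran from 0.44 to 3.60 and the transducers from -1.06 to -0.17. With the floor at percentile 25 of all values, 2029 genes were past 2-fold on the higher side and 1599 on the lower side. The share of higher genes was then 55.9%, so the lean of all genes to the lower side depends on the floor.

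**Figure D1:**
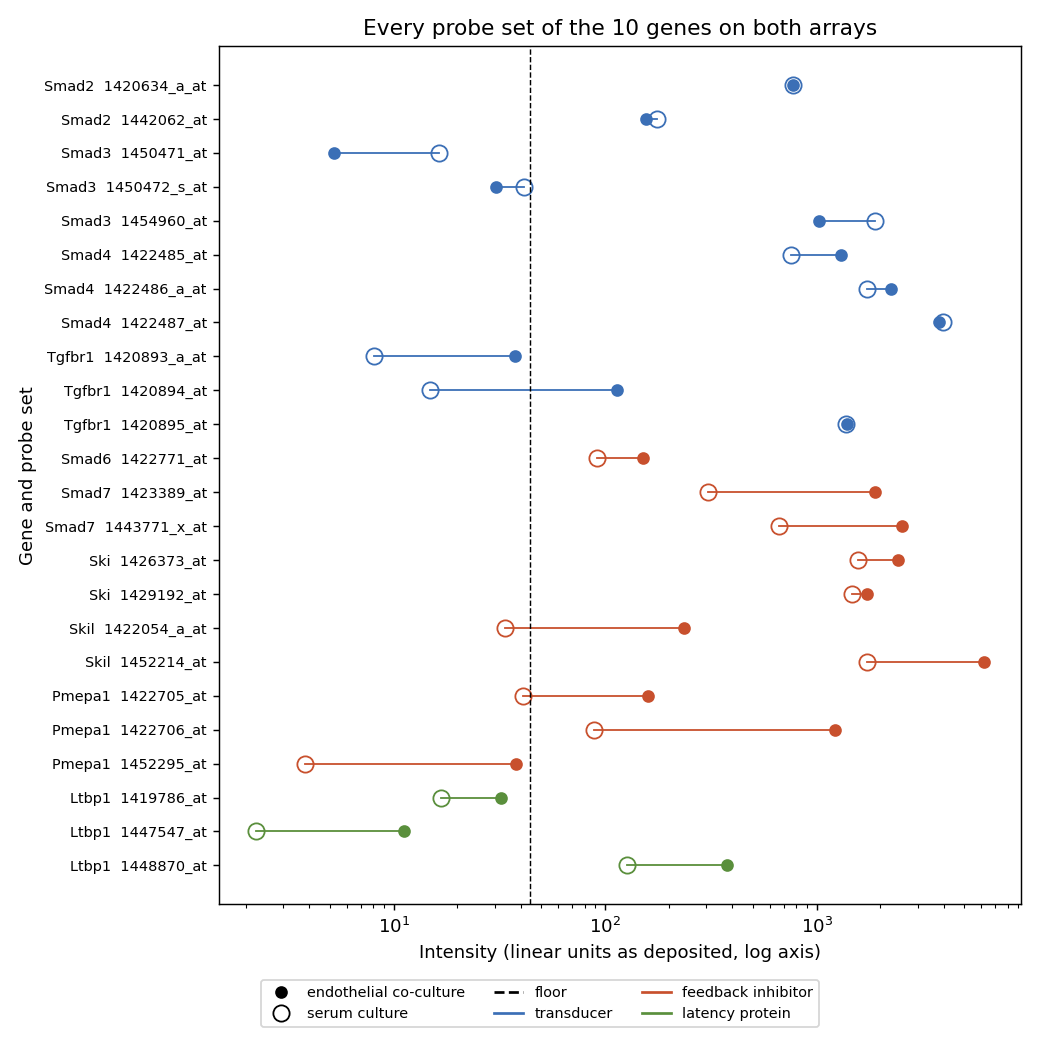
Intensity (log axis) of all 24 probe sets, named on the vertical axis, with filled circles for co-culture, open circles for serum culture and a line joining the pair; the dashed line is the floor of 44.3. All 9 measured probe sets of feedback inhibitors are higher in co-culture, while the 8 measured probe sets of transducers lie on both sides. Those with only the filled circle above the floor could only come out higher.

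Counted by probe set, the ranges of the inhibitors (0.24 to 3.79) and the transducers (-0.87 to 1.37) overlapped. Of 9 measured probe sets of the inhibitors 9 were higher in co-culture and 6 were at least 2-fold higher, with a median log2 difference of 1.85. Of 8 measured probe sets of the transducers 5 were higher and 3 lower, with 1 at least 2-fold higher, 0 at least 2-fold lower and a median of 0.01. The background among 21168 measured probe sets is 8.17% past 2-fold on the higher side and 8.05% on the lower side. Probe sets of 1 gene share their RNA and are not replicates. Probe sets 1422054_a_at of Skil, 1422705_at of Pmepa1 and 1420894_at of Tgfbr1 were above the floor in co-culture only. They could therefore only come out higher, and all of them are in the 2-fold counts. The inhibitor median of 1.85 is the lower bound from 1422705_at.

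Smad2 and Smad3 are the receptor-activated SMADs of the TGF-beta and activin branch, and the pair differed from each other. Smad2 had an intensity of 773 in co-culture and 771 in serum culture by its brighter probe set (1420634_a_at), a log2 difference of 0.00. Its other probe set (1442062_at) gave 156 in co-culture and 176 in serum culture, a log2 difference of -0.17. Both differences of Smad2 were smaller than the probe set SD. Smad3, which binds DNA directly, had 1027 in co-culture and 1880 in serum culture (1454960_at), 1.83-fold lower, a log2 difference of -0.87. That is the only measured probe set of Smad3: the other 2 (1450471_at and 1450472_s_at) stayed below the floor on both arrays, at 5.23 and 30.6 in co-culture and 16.4 and 41.4 in serum culture. Smad2 minus Smad3 came to 0.88 on the log2 scale, 1.46 times the probe set SD, a unit too small for a gap between genes. Of all measured genes 12.6% had a difference as low as that of Smad3, so it was not among the extremes.

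Smad4, the partner shared by the TGF-beta and bone morphogenetic protein (BMP) branches, was bright on both arrays by all 3 probe sets. The brightest (1422487_at) had 3780 in co-culture and 3977 in serum culture, a log2 difference of -0.07. The next (1422486_a_at) had 2239 in co-culture and 1739 in serum culture, a log2 difference of 0.36. The dimmest (1422485_at) had 1300 in co-culture and 755 in serum culture, 1.72-fold higher, a log2 difference of 0.78. None of the 3 reached 2-fold, but they spanned 0 and do not give Smad4 a direction.

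Tgfbr1, the type I receptor kinase, also read differently by probe set. The brightest (1420895_at) had 1389 in co-culture and 1373 in serum culture, a log2 difference of 0.02. A second (1420894_at) had 114 in co-culture and 14.9, below the floor, in serum culture, at least 2.58-fold higher. The third (1420893_a_at) stayed below the floor with 37.5 in co-culture and 8.08 in serum culture. The bright probe set and the dim one therefore disagree for Tgfbr1, and the only transducer probe set past 2-fold is one that lay below the floor in serum culture. Such a tilt was common on these arrays: of 9608 measured probe sets that were dimmer than the brightest of their gene, 63.2% had a more positive difference than the brightest, by a median of 0.19, and among the 10 genes 5 of 8 did.

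**Figure D2:**
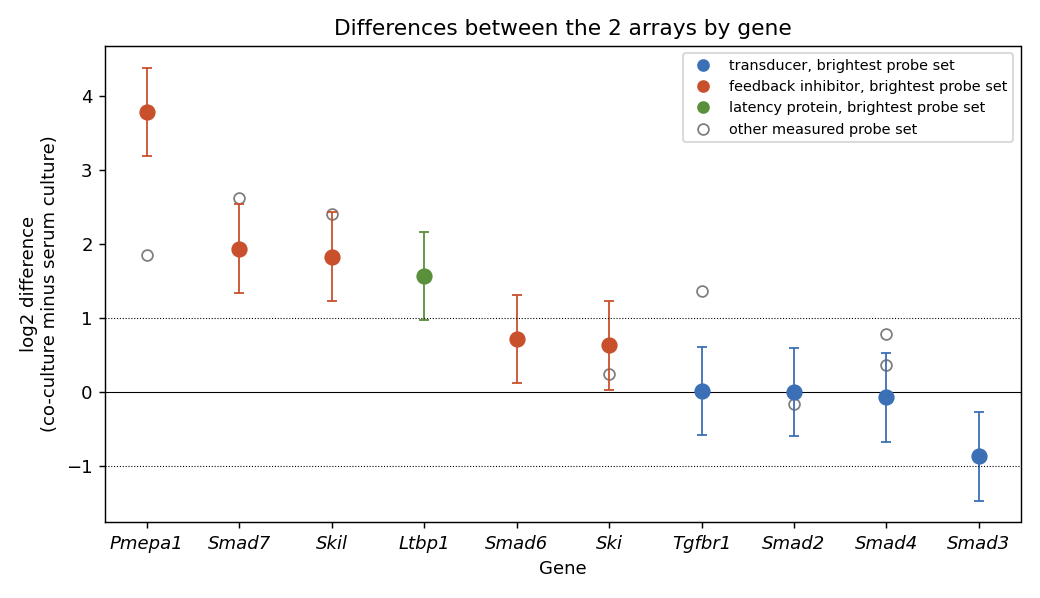
Log2 difference (co-culture minus serum culture) of each gene, from highest to lowest, with filled circles for the brightest probe set, bars of 1 pooled SD between probe sets of the same gene (0.60) and open circles for other measured probe sets; dotted lines mark 2-fold. Pmepa1, Smad7, Skil and Ltbp1 lie above the upper line, and the transducers lie close to 0 or below it except for a dimmer probe set of Tgfbr1 and 2 of Smad4.

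Pmepa1 had the highest difference of the 10 genes. It encodes a membrane protein that holds Smad2 and Smad3 away from the receptor and is itself a TGF-beta target. Its brightest probe set (1422706_at) had 1225 in co-culture and 88.5 in serum culture, 13.8-fold higher, and only 6 of the 11560 measured genes had a higher difference. A second (1422705_at) had 159 in co-culture and 41.0, below the floor, in serum culture, at least 3.60-fold higher. The third (1452295_at) was below the floor on both arrays at 37.8 in co-culture and 3.80 in serum culture. Both measured probe sets were past 2-fold in the same direction, though their log2 differences of 3.79 and 1.85 were 1.94 apart. The direction of 1422705_at was fixed, since it was above the floor in co-culture only. Floors above 88.5 give lower bounds for the log2 difference, 2.61 at 200 and 1.65 at percentile 75. The mean over probe sets, 1.88, counts the third probe set as 0.

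Smad7 is the inhibitory SMAD that brings ubiquitin ligases to the TGF-beta receptor and competes with Smad2 and Smad3 for it. Its brighter probe set (1443771_x_at) had 2537 in co-culture and 661 in serum culture, 3.84-fold higher, with 65 measured genes higher still. The other (1423389_at) had 1896 in co-culture and 307 in serum culture, 6.17-fold higher. Both probe sets of Smad7 were thus well above the floor on both arrays and past 2-fold. The brighter one is of a type that marks sequence shared with other transcripts, and without such probe sets the log2 difference of Smad7 was 2.63 in place of 1.94.

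Smad6, the other inhibitory SMAD, acts mainly on the BMP branch. It has 1 probe set (1422771_at), which had 151 in co-culture and 92.0 in serum culture, 1.64-fold higher, a log2 difference of 0.72. It did not reach 2-fold, and 9.24% of measured genes had a difference as high. Smad7 minus Smad6 came to 1.22 on the log2 scale, 2.05 times the probe set SD, which is again too small a unit for such a gap.

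Skil and Ski are nuclear co-repressors that bind SMAD complexes on DNA and shut off their targets. Skil (also called SnoN), a known early target of the pathway, had 6191 in co-culture and 1739 in serum culture (1452214_at), 3.56-fold higher, with 82 measured genes higher still. Its other probe set (1422054_a_at) had 236 in co-culture and 33.6, below the floor, in serum culture, at least 5.33-fold higher. Ski had 2426 in co-culture and 1568 in serum culture (1426373_at), 1.55-fold higher, a log2 difference of 0.63. The second probe set of Ski (1429192_at) had 1732 in co-culture and 1462 in serum culture, a log2 difference of 0.24. Skil was past 2-fold by both probe sets and Ski by neither. The direction of 1422054_a_at of Skil was fixed, since it was above the floor in co-culture only. The gap between the brightest probe sets of Skil and Ski was 1.20 on the log2 scale. That is 2.01 times the probe set SD, with the same limit on the unit.

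Ltbp1 tethers latent TGF-beta to the matrix until it is activated. One of its 3 probe sets was measured (1448870_at), with 375 in co-culture and 127 in serum culture, 2.96-fold higher. The other 2 (1419786_at and 1447547_at) lay below the floor, at 32.3 and 11.2 in co-culture and 16.8 and 2.23 in serum culture. Its place past 2-fold thus rests on 1 probe set, with a log2 difference of 1.57. At a floor of 200, above its value in serum culture, the log2 difference is a lower bound of 0.91. The mean over probe sets, 0.52, counts the 2 below the floor as 0.

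**Figure D3:**
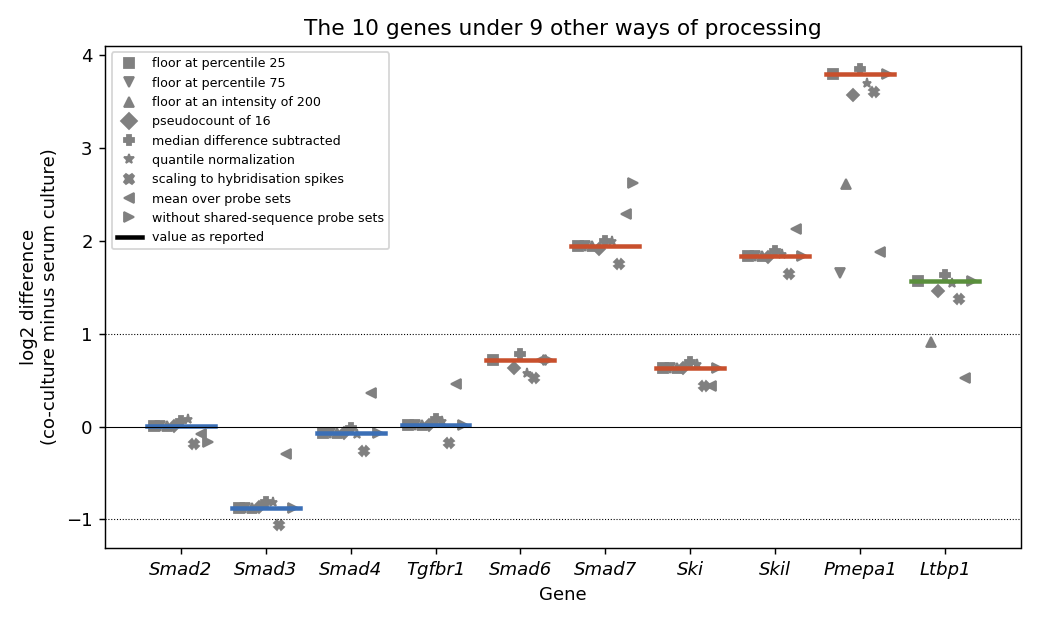
Log2 difference (co-culture minus serum culture) of each gene as reported (coloured bars) and under 9 other ways of processing the values (grey symbols); dotted lines mark 2-fold. Smad7, Skil and Pmepa1 stay above 2-fold under all 9, Smad3 passes 2-fold lower only under scaling to the spikes, and a symbol is absent where a gene fell below the floor.

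Smad3 and Smad6 are next to each other among protein-coding genes on mouse chromosome 9, and their differences ran opposite ways (-0.87 and 0.72). Their promoters are shown because Smad6 holds the palindrome GTCTAGAC, the SMAD binding element that human SMAD3 and SMAD4 prefer in vitro, and Smad3 does not. Each runs from 250 bases before the gene's start to 50 after it (RefSeq, GRCm38.p6, minus strand), at chr9:64022010-64022309 for Smad6 and chr9:63757945-63758244 for Smad3. Capitals mark GTCTAGAC, which reads the same on both strands, and CAGAC, a shorter sequence that SMADs bind, searched on both strands (GTCTG on the other). CAGAC is not part of GTCTAGAC, and in these 2 promoters it has no match. AGAC, which ends GTCTAGAC, was not searched for on its own and occurs in the Smad3 window.
Smad6: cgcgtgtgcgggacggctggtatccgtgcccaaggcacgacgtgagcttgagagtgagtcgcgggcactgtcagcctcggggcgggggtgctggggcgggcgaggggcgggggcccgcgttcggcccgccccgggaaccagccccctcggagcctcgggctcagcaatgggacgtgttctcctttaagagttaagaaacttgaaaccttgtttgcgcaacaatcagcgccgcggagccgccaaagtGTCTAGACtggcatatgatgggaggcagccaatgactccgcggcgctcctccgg
Smad3: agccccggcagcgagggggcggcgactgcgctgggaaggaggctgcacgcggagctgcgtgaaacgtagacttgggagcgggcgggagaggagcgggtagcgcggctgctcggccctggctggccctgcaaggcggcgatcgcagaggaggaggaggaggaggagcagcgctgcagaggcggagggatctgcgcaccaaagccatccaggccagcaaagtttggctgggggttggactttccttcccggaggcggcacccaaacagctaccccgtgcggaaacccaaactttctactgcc

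In the Smad6 promoter GTCTAGAC begins 4 bases before the start of the gene and so runs across it. Of 32851 mouse promoters of the same length 70 hold GTCTAGAC (0.213%) and 49.6% hold CAGAC. Of 67 genes with GTCTAGAC in a promoter 31 were measured here, and of these 1 was past 2-fold on the higher side and 7 on the lower side, against the 4.52% and 9.97% of all measured genes, with a median log2 difference of -0.27; Smad6 was among the 2 highest. A match describes the letters of the window and shows no binding.

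Ltbp1 was the only gene past 2-fold matched to a promoter. The window at its first start (RefSeq, GRCm38.p6, plus strand, chr17:75005279-75005578) holds 1 match to CAGAC, in capitals, read on the other strand as GTCTG. The second start of Ltbp1 holds 2.
Ltbp1: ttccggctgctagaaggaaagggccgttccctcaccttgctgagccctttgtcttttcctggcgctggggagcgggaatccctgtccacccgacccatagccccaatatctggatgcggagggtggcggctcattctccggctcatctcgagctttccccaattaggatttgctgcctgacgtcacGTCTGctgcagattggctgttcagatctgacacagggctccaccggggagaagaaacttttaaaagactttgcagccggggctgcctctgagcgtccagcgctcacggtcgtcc
Ski and the first start of Tgfbr1 hold neither GTCTAGAC nor CAGAC, and the second start of Tgfbr1 holds 1 CAGAC. The matched promoters come from these 5 genes, with 7 starts in all.

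Upstream of the SMADs, the TGF-beta ligands and their type II receptor were near or under the floor, apart from Tgfb2. Tgfbr2, the type II receptor that binds TGF-beta itself, was under the floor in both cultures by all 3 probe sets, with at most 26.9 in co-culture and 14.8 in serum culture. Tgfbr2, Tgfb1, Acvr2a and Acvr1b were chosen after their values were seen. Tgfb1 was at the floor, with at most 44.8 in co-culture and 20.7 in serum culture. Tgfb2 was measured by all 4 probe sets, the brightest with 234 in co-culture and 305 in serum culture, a log2 difference of -0.38, and the others ran from -0.61 to -0.28. Tgfb3 had 43.3 in co-culture, below the floor, and 65.8 in serum culture. Of 9 ligand genes on the arrays 4 were measured and 0 were past 2-fold, with a median log2 difference of -0.25.

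Of 10 other receptors and coreceptors 7 were measured, with 0 past 2-fold on the higher side, 2 on the lower side and a median of 0.20. Tgfbr3 (betaglycan), a coreceptor that presents TGF-beta to the type II receptor, had 104 in co-culture and 594 in serum culture, 5.71-fold lower. Acvr2b, a type II activin receptor, had 70.6 in co-culture and 204 in serum culture, 2.88-fold lower. Each rests on 1 measured probe set, of 2 for Tgfbr3 and of 3 for Acvr2b. The lower count fell to 1 with averaged probe sets or a floor at an intensity of 200, and to 0 with a floor at percentile 75. The receptors of the activin branch, which feeds the same SMADs, were not all low: Acvr2a had 4328 in co-culture and 5732 in serum culture, and the type I receptor Acvr1b had 708 in co-culture and 534 in serum culture. Acvr2a and Acvr1b both lay within 2-fold. The other probe set of Acvr2a went the opposite way, with 263 in co-culture and 185 in serum culture, a log2 difference of 0.50.

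The remaining genes of the pathway were mostly within 2-fold. Of 61 measured genes in 7 lists chosen by role, 3 (4.92%) were past 2-fold on the higher side and 5 (8.20%) on the lower side, beside the 4.52% and 9.97% of all measured genes, with a median of 0.14. Genes of latency and activation had 0 of 5 past 2-fold and a median of 0.29, led by the ligand-processing protease Furin (4337 in co-culture and 2643 in serum culture) and the matrix protein Fbn2 (2969 in co-culture and 2139 in serum culture, a log2 difference of 0.47, and -0.59 by its other probe set). In that list Itgav had a log2 difference of 0.29, and up to 1.40 by another probe set. The BMP-branch SMADs and SMAD anchors had 0 of 5 past 2-fold and a median of 0.11. There Smad1 had 4120 in co-culture and 6252 in serum culture (-0.60, and up to 0.46 by another probe set). Smad5 had 1606 in co-culture and 1073 in serum culture (0.58, but 1.25 and 2.15 by its other probe sets). The 10 measured nuclear partners of the SMADs had 0 past 2-fold and a median of 0.46, with the acetyltransferase Ep300 at 2096 in co-culture and 1330 in serum culture and the repressor Zeb1 at 1731 in co-culture and 2983 in serum culture. Other probe sets of Zeb1 gave log2 differences from -1.13 to 1.10. Tgif2 had a log2 difference of 0.57, but 1.93 by its other probe set. Itgav and Tgif2 were named after their values were seen. With averaged probe sets 1 of the nuclear partners and 1 gene of the BMP-branch list were at least 2-fold higher.

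Of 13 measured genes of SMAD and receptor turnover 1 was past 2-fold on each side, with a median of 0.24. The higher count was 2 with a floor at percentile 25, the median difference subtracted or quantile normalization. Both counts were 0 with a floor at percentile 75 or at an intensity of 200. The lower count was also 0 with averaged probe sets or without shared-sequence probe sets. Sik1, a kinase that works with Smad7 to bring down Tgfbr1, had 179 in co-culture and 42.9, below the floor, in serum culture, at least 4.05-fold higher. Nedd4l, a ubiquitin ligase for activated Smad2 and Smad3, had 42.4, below the floor, in co-culture and 128 in serum culture, at least 2.89-fold lower; its other measured probe sets gave -0.82 to -0.08 on the log2 scale. Sik1 rests on 1 measured probe set of 2, above the floor in co-culture only, so it could only come out higher. The brightest probe set of Nedd4l was above the floor in serum culture only, so its direction was fixed too.

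Of 17 measured targets 2 were past 2-fold on each side, with a median of 0.10. Ccn2, a matrix-associated growth factor, had 223 in co-culture and 1.84 in serum culture, at least 5.03-fold higher. Cdkn1a, the p21 inhibitor of cell division, had 4727 in co-culture and 1390 in serum culture, 3.40-fold higher, and 1.53 on the log2 scale by its other probe set. Snai2, a repressor of epithelial genes, had 651 in co-culture and 1528 in serum culture, 2.35-fold lower, but its other probe set gave a log2 difference of -0.57. Lmcd1, a LIM-domain protein, had 3.99 in co-culture and 90.1 in serum culture, at least 2.03-fold lower. Ccn2 and Lmcd1 were each above the floor on 1 array only, so the side of each was fixed. Both sides depend on the processing. On the lower side 0 targets were past 2-fold without shared-sequence probe sets and 1 with averaged probe sets. The lower count was also 1 with the median difference subtracted or a floor at percentile 75 or at an intensity of 200. With a floor at percentile 25 or a pseudocount of 16 the lower count was 3. On the higher side 1 target was past 2-fold with a floor at percentile 75 or at an intensity of 200. The median of the target list stood beside -0.06 for all measured genes and 1.83 for the 5 inhibitors, most of which are also known targets but were picked with these values in view.

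**Figure D4:**
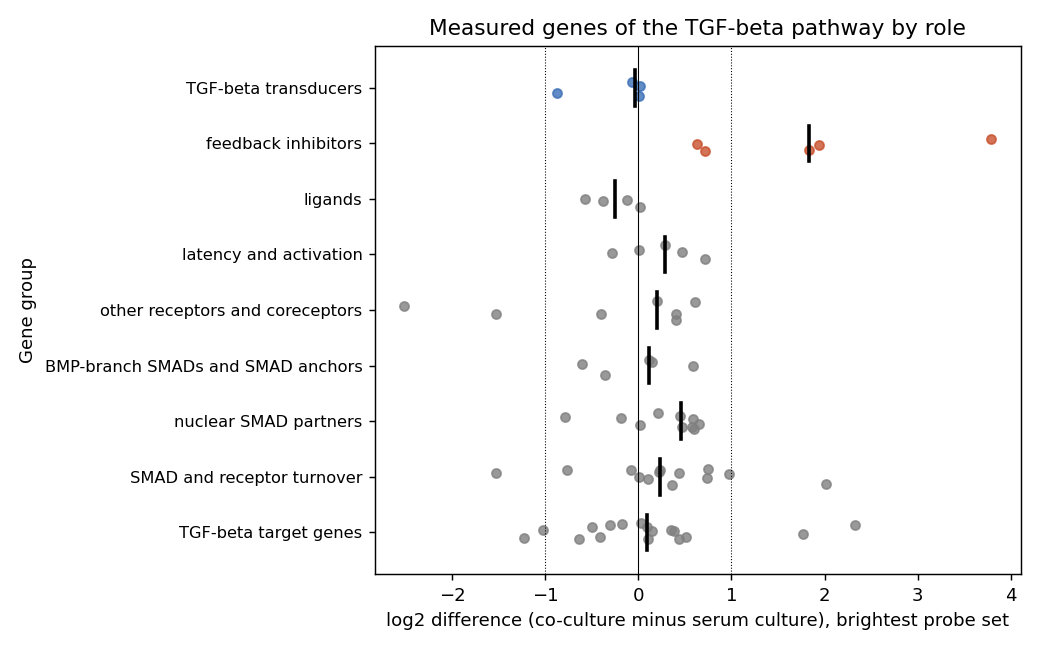
Log2 difference (co-culture minus serum culture, brightest probe set) of measured genes by role, each point 1 gene and each black bar the median of its row; dotted lines mark 2-fold and points are spread vertically for sight. The 5 feedback inhibitors lie between 0.63 and 3.79, while the medians of the other rows lie between -0.25 and 0.46.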

How the data were processed

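Total RNA was purified with a column kit, copied from a poly(A) primer with a T7 promoter and made into biotin-labelled RNA for 1-colour arrays, per the labels' protocols. The authors deposited 1 linear intensity for each of 45101 probe sets on each of 2 arrays. The array software is not given in the sources used here, nor is any background correction or normalization. The mean after trimming 2% at each end is 500.003 on both arrays. The medians differ, at 50.7 in co-culture and 36.9 in serum culture. Above the floor lay 52.7% of probe sets in co-culture and 47.3% in serum culture. Pmepa1, Smad6 and Ltbp1 were dim in serum culture. With both arrays given the same distribution (quantile normalization) their log2 differences were 3.70, 0.58 and 1.55, against 3.79, 0.72 and 1.57 as reported. Symbols came from the platform annotation, 34754 of 34958 through the gene number to RefSeq (GRCm38.p6). Probe sets with several symbols (932) were left out; none listed one of the 10 genes.

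Each gene took its brightest probe set by mean log2 value after the floor (44.3). Past 2-fold means a log2 difference of at least 1 in size, and a fold against a value below the floor is a lower bound. The 10 genes, lists and settings were chosen with earlier results of these data known. All 10 genes were named; from each of 7 pathway lists, up to 4 members past 2-fold, or the 2 with the largest difference where none was; from each of 5 marker lists, the 2 brightest. The steps were tested on simulated data (Python 3.11.15, pandas 2.3.3, numpy 2.4.6). There only genes well above the floor were moved, by a fixed fold and with little noise. That test does not cover genes near the floor. Effects of 9 alternatives are given in the closing section.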

Additional observations from a re-analysis of the deposited data

How the results depend on the processing

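With 1 array for each culture no replicate can be left out. For the 10 genes, the median of the inhibitors, that of the transducers and the gap between them moved by less than the probe set SD under each of 9 alternatives. Not all of these could move the gap. Subtracting the median difference and scaling to the spikes shift all 10 genes alike, and the floor at percentile 25 lay below their values. The gap of 1.87 was therefore fixed in advance under these settings. The count of genes at least 2-fold higher stayed within 1.5 times of 4. Scaling to the spikes put 1 of the 10 genes, Smad3, past 2-fold lower, at a log2 difference of -1.06. The lowest inhibitor no longer lay above the highest transducer when probe sets were averaged (0.44 for Ski, 0.46 for Tgfbr1). In the other 8 it did, but several of these could not change that order. Smad6 and Ltbp1 fell below the floor at percentile 75, and Smad6 at 200. Counts of all genes followed the floor. At percentile 25, 2029 were higher and 1599 lower. These counts were 143 higher and 397 lower at percentile 75, and 218 higher and 656 lower at 200. They came to 853 higher with a pseudocount of 16, 328 higher with spike scaling, and 653 lower with averaged probe sets. Of the pathway lists, 9 genes were higher at percentile 25, 1 higher and 1 lower at percentile 75, 1 higher and 2 lower at 200, 5 higher and 2 lower with averaged probe sets, and 2 lower without shared-sequence probe sets. A higher floor leaves fewer genes to count and turns folds against values under it into lower bounds. Averaging counts probe sets below the floor on both arrays as 0, which pulls the difference of a gene that has them towards 0. It also brings in dimmer measured probe sets, and the higher pathway genes rose from 3 to 5 under it. The cause of that rise, and of the changes under the other settings, was not tested.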
